A study of Mus musculus with 12 samples.

Results

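The response of TG2 knockout (KO) mouse embryonic fibroblasts (MEFs) to heat shock was described from 6 libraries, 3 of heat-shocked KO MEFs and 3 of control KO MEFs. TG2, type 2 transglutaminase, crosslinks proteins and is encoded by Tgm2. A gene was followed when its normalized read count was at least 10 in at least 3 of these 6 libraries, which held for 12885 of the 45808 genes in the table. The heat-shocked KO MEFs had been kept for 20 min in a water bath at 42 °C and the control KO MEFs stayed at 37 °C. Both groups carried the genotype TG2-/- on the C57BL/6 background. The study also sequenced 3 heat-shocked and 3 control libraries of WT MEFs of that background, 12 libraries in all. The MEFs were isolated from E14 embryos and passaged until they became immortal spontaneously, so KO and WT are also separately immortalized cells. Where the 3 libraries of a group came from is not stated. The p-values therefore reflect the spread among libraries, and this spread may be technical.

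Mammalian cells answer heat by releasing HSF1, a transcription factor that is held inactive by chaperones, and HSF1 trimers then bind heat shock elements in the promoters of chaperone genes. Inducible Hsp70 and the small heat shock proteins are its best known targets. Heat also activates immediate early genes, slows the synthesis and processing of many other RNAs, and changes RNA decay. The study asked how far the loss of TG2 affects this response.

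Tgm2 itself had 1049, 526 and 1093 normalized reads in the heat-shocked KO libraries, against 1189, 1032 and 1065 in the control KO libraries. The second heat-shocked library stood far below the rest, and the other 5 lay close together. The fitted log2 change of Tgm2 was -0.37 ± 0.17 (SE, adjusted p = 0.285, limma). Tgm2 averaged 889 ± 315 in heat-shocked KO and 1999 ± 46.3 in heat-shocked WT MEFs (SD, n = 3 each), and 1095 ± 82.7 in control KO and 1664 ± 76.5 in control WT MEFs (SD, n = 3 each). Reads of the gene were thus lower in KO libraries but not absent, and the table counts whole genes, so it does not tell reads of a deleted exon from others.

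The 6 KO libraries held 16819011 to 22919496 reads in genes, and 1 read was worth 0.832 to 1.13 on the normalized scale. Across genes, which are not independent of each other, replicate libraries had Pearson r values of 0.992 to 0.995. The first principal component, with 35.9% of the variance, set all 3 heat-shocked libraries apart from all 3 controls. Of 11 fibroblast markers, 9 were among the genes followed. The summed fibroblast markers reached 178207 to 201651 normalized reads in heat-shocked and 137001 to 151247 in control KO libraries. Markers of other cells summed to 1415 to 1720 in heat-shocked and 1550 to 1815 in control KO libraries for macrophages, and to 1055 to 1166 in heat-shocked and 908 to 1135 in control KO libraries for neurons. Of 10 macrophage markers Cd68, Csf1r and Cd14 were among the genes followed and Adgre1 had no read in the 6 libraries, and of the neuron markers Rbfox3, Snap25 and Map2 had none. Muscle markers summed to 215 to 249 in heat-shocked and 199 to 230 in control KO libraries. The sums of the epithelial, endothelial, adipocyte and T cell lists were at most 35.3 in heat-shocked and 29.7 in control KO libraries. Their part in the results was not tested. In bulk RNA, fewer cells of a type and less RNA per cell cannot be told apart.

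Heat shock changed few genes in KO MEFs. A gene was called when the fitted fold was at least 1.5 and the p-value of limma, adjusted by Benjamini-Hochberg, was no more than 0.05. The fit was made on log2(normalized reads + 1), a scale that understates the change of genes with low counts. By this rule 62 genes were higher in heat-shocked than in control KO MEFs, 0.481% of the genes tested, and 34 were lower, 0.264% of them. Among the called genes, 61 of the 62 higher and all 34 lower ones had no overlap between the 3 heat-shocked and the 3 control libraries, where 12.4% of all tested genes lay wholly above and 10.8% wholly below their controls. The genes were called on these same libraries, so this separation largely follows from the call and adds no support to it. The median change was 1.05 on the log2 scale over the higher genes and -0.86 over the lower ones. The middle 90% of all tested genes lay between -0.30 and 0.35. With a fit of the 6 KO libraries alone, 53 of the 62 higher and 31 of the 34 lower genes were called again. Leaving out the second heat-shocked library left 40 higher genes in place of 62.

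**Figure D1:**
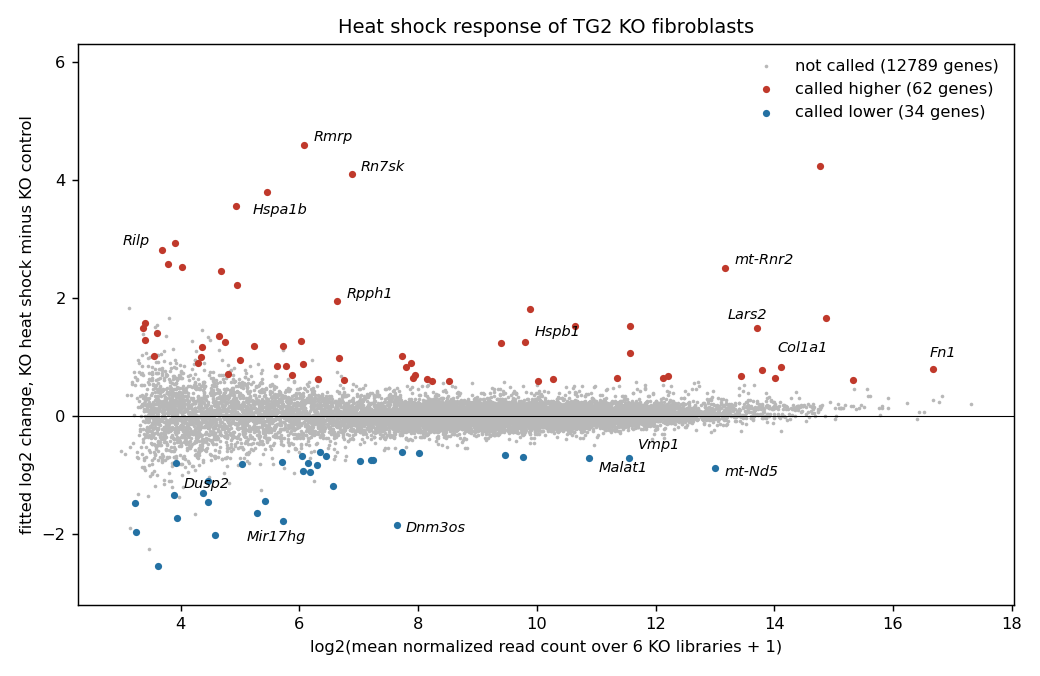
Fitted log2 change in KO MEFs (heat shock minus control, vertical axis) against the log2 of the mean normalized read count over the 6 KO libraries plus 1 (horizontal axis), one point per gene tested. The 62 genes called higher (red) reach 4.59 for Rmrp, and the 34 called lower (blue) reach -2.55 for a feature annotated as Mir186.

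The called genes were more often noncoding than the tested genes were. Annotated protein-coding genes gave 36 of the higher and 14 of the lower calls, and 0.456% of the 10967 tested were called. Noncoding features other than pseudogenes gave 18 higher and 17 lower calls, 4.94% of the 708 tested. At the edge of the filter, 236 genes reached a value of 10 in exactly 3 KO libraries, with a median mean of 10.3, and 278 genes fell just outside with 2 such libraries and a median mean of 8.58.

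Among the chaperones, Hspa1b and Hspb1 rose. Hspa1b, which encodes the inducible cytosolic Hsp70, had 70.1, 66.4 and 103 normalized reads in the heat-shocked KO libraries, against 2.12, 9.99 and 4.52 in control KO libraries. All 3 heat-shocked values lay far above the controls, and the fitted rise was 3.79 ± 0.37 on the log2 scale (SE, adjusted p = 8.06e-06, limma), or 13.8-fold. Its near-identical neighbour Hspa1a shares 1968 of the 2766 stretches of 21 bases in Hspa1b, so that the reads of the pair are hard to tell apart. Hspa1a stayed below the filter, with 5, 3 and 11 reads in heat-shocked and 0 in each control KO library, at least 6.71-fold higher against a floor of 3 reads over the control group. Hspb1, a small heat shock protein that keeps unfolded proteins soluble, had 1130, 1133 and 1530 normalized reads in heat-shocked and 528, 533 and 503 in control KO libraries. The third heat-shocked library was the highest, the groups did not overlap, and Hspb1 rose by 1.26 ± 0.15 on the log2 scale (SE, adjusted p = 4.07e-05, limma). Both calls held in every alternative that tested them.

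The promoters of both genes are printed because they show the sequence that HSF1 is known to bind, inverted repeats of GAA. Each run holds 250 bases before and 50 bases after the RefSeq start (GRCm38.p6), read 5′ to 3′ on the strand of the gene, and capitals mark each match to GAANNTTC or TTCNNGAA. Both motifs are their own reverse complements, so a match counts for both strands. The Hspa1b promoter lies on chromosome 17, 34959189 to 34959488, minus strand, and the Hspb1 promoter on chromosome 5, 135887669 to 135887968, plus strand.
Hspa1b: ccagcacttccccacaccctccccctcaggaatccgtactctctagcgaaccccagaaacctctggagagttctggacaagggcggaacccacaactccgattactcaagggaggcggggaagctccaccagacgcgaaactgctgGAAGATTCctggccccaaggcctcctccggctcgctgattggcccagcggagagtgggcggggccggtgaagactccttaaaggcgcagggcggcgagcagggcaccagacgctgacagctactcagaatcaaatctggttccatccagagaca
Hspb1: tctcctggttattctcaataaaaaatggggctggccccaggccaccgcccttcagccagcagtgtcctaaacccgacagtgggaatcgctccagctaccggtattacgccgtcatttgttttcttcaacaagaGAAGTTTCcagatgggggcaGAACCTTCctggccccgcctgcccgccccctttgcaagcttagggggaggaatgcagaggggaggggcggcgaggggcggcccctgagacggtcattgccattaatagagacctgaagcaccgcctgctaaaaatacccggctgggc
Hspa1b held 1 match and Hspb1 held 2. Of the genes called higher with a promoter in the table, 4 of 30 held a match (13.3%), against 4 of 18 called lower (22.2%) and 1245 of 9055 tested genes (13.7%). The share over all 32851 promoters was 15.1%. Among the tested HSF1 target chaperones, 13 of 25 promoters held a match (52%). A match is a description of the letters in this window.

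The rest of the chaperone list stayed under the threshold. Of 31 HSF1 target chaperones tested, 2 were called higher and none lower, where 0.481% of all tested genes were called higher and 0.264% lower. The list had a median change of 0.09 with 25 members above 0, where 51.3% of all tested genes were above 0 and their median was 0.005. Bag3, a cochaperone of Hsp70 that was picked after its values were seen, had 904, 1064 and 1085 normalized reads in heat-shocked and 797, 682 and 665 in control KO libraries. Those groups did not overlap and the adjusted p was 0.00113 (limma), but the change of 0.51 ± 0.08 (SE) was below the fold threshold. Dnajb1, an Hsp40 cochaperone, had 2667, 2550 and 2848 in heat-shocked and 2354, 2198 and 2196 in control KO libraries, a change of 0.26 ± 0.10 (SE, adjusted p = 0.201, limma). For Hsph1, the Hsp110 nucleotide exchange factor, the change was 0.07 ± 0.07 (SE, adjusted p = 0.627, limma). Hsf1, the main heat shock factor, had 2173, 2284 and 2159 normalized reads in heat-shocked and 2353, 2206 and 1969 in control KO libraries, and the groups overlapped. The change of Hsf1 was 0.02 ± 0.07 (SE, adjusted p = 0.924, limma), and that of Hsf2, a related factor, 0.01 ± 0.10 (SE, adjusted p = 0.966, limma). The unfolded protein response list, the counterpart in the endoplasmic reticulum, had 0 of 27 members called and a median of 0.02, with Hspa5 at 0.04 ± 0.07 and Ddit3 at 0.00 ± 0.08 (SE).

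**Figure D2:**
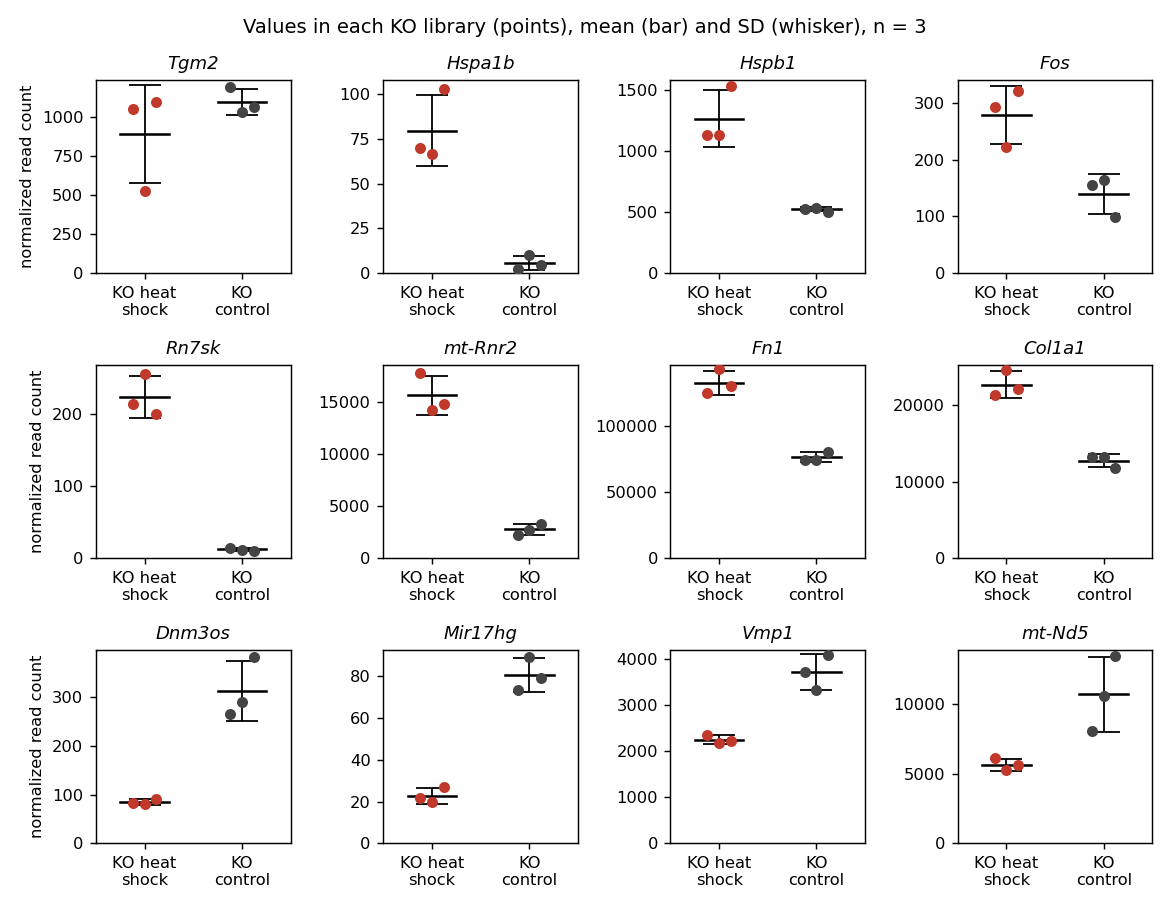
Normalized read count of 12 genes in each of the 3 heat-shocked (red) and 3 control (grey) KO libraries, with mean and SD on linear axes that start at 0. Except for Tgm2, the points of both groups do not overlap in any panel.

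Immediate early genes code for transcription factors and signalling inhibitors made within minutes of a stimulus. Of 48 tested, 3 were called higher and 1 lower, where 0.481% of all tested genes were called higher and 0.264% lower, and the list median was 0.06. Fos, a subunit of the AP-1 transcription factor, had 293, 223 and 321 normalized reads in heat-shocked and 156, 165 and 99.5 in control KO libraries. The groups did not overlap and Fos rose by 1.01 ± 0.24 on the log2 scale (SE, adjusted p = 0.0269, limma). The call ended without control library 3 (0.78), heat-shocked library 1 (0.96) or heat-shocked library 3 (0.90). Egr2, a zinc finger transcription factor, had 310, 337 and 376 normalized reads in heat-shocked and 247, 227 and 193 in control KO libraries. It rose by 0.62 ± 0.14 (SE, adjusted p = 0.0179, limma), and the call ended without control library 2 or 3 or heat-shocked library 2 or 3, at 0.52 to 0.63. Gadd45g, a growth arrest and DNA damage gene, had 102, 42.5 and 67 in heat-shocked and 43.5, 35.8 and 30.5 in control KO libraries. One heat-shocked library lay below the highest control. Gadd45g was called at 0.85 ± 0.21 (SE, adjusted p = 0.0330, limma) with all 12 libraries, not with the KO libraries alone. The call also ended without control library 2 (0.84) or 3 (0.73) or heat-shocked library 1 (0.55) or 3 (0.85). Dusp2, a nuclear phosphatase of MAP kinases, had 5.65, 9.34 and 7.33 in heat-shocked and 21.2, 15.8 and 23.7 in control KO libraries, a clear separation at low counts. It fell by 1.34 (SE 0.27, adjusted p = 0.00781, limma). Jun, the main partner of Fos, had 2965, 2777 and 3024 normalized reads in heat-shocked and 3188, 2919 and 2426 in control KO libraries, with overlapping groups and a change of 0.05 ± 0.14 (SE, adjusted p = 0.918, limma). Egr1 had 2872, 2288 and 2883 in heat-shocked and 2054, 2126 and 1676 in control KO libraries and did not pass either (0.46 ± 0.13, SE, adjusted p = 0.0759, limma).

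Among the genes that rose were structural RNAs that work without being translated, with Rmrp the largest rise of all. Rmrp, the RNA of the mitochondrial RNA processing endoribonuclease, had 139, 128 and 120 normalized reads in heat-shocked KO libraries, against 3.18, 5.83 and 4.52 in control KO libraries. Rn7sk, the 7SK RNA that restrains the elongation factor P-TEFb, had 213, 255 and 200 in heat-shocked and 14.8, 11.7 and 10.2 in control KO libraries. Rpph1, the RNA of ribonuclease P, had 163, 143 and 162 in heat-shocked and 30.8, 46.6 and 44.1 in control KO libraries. In each case every heat-shocked library was several times above every control. The rises were 4.59 ± 0.27 for Rmrp (SE, adjusted p = 1.13e-08, limma), 4.09 ± 0.25 for Rn7sk (SE, adjusted p = 1.13e-08, limma) and 1.94 ± 0.22 for Rpph1 (SE, adjusted p = 4.16e-05, limma). Terc, the telomerase RNA, was the member of the list that was tested and not called (-0.11 ± 0.55, SE). These RNAs are made by RNA polymerase III, apart from Terc, and carry no long poly(A) tail, while the library kit named in the methods selects polyadenylated RNA.

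Ribosomal RNAs of mitochondria, several abundant noncoding features and the protein-coding gene Lars2 rose as well. mt-Rnr2, the large mitochondrial ribosomal RNA, had 17843, 14306 and 14891 normalized reads in heat-shocked and 2271, 2765 and 3287 in control KO libraries. It rose by 2.51 ± 0.16 (SE, adjusted p = 2.39e-08, limma). mt-Rnr1, the small one, had 4831, 3472 and 4039 in heat-shocked and 1592, 1792 and 2560 in control KO libraries and rose by 1.07 ± 0.15 (SE, adjusted p = 0.000328, limma). Gm26917, a long noncoding RNA annotated on chromosome 17, 39843013 to 39846341 (GRCm38), was singled out after its values were seen. It had 58691, 52378 and 48159 normalized reads in heat-shocked and 3965, 2521 and 2231 in control KO libraries, and rose 18.8-fold (4.23 ± 0.17 on the log2 scale, SE, adjusted p = 3.26e-11, limma). A feature named Yam1 had 48094, 45892 and 42936 in heat-shocked and 17840, 14022 and 12071 in control KO libraries, a rise of 1.66 ± 0.13 (SE, adjusted p = 4.25e-07, limma). Lars2, the mitochondrial leucyl-tRNA synthetase, had 18956, 19313 and 20493 in heat-shocked and 7595, 6422 and 6963 in control KO libraries and rose by 1.49 ± 0.12 (SE, adjusted p = 1.03e-06, limma). Its annotated transcripts share 32 stretches of 21 bases with Gm15564, a noncoding gene on chromosome 16 that rose by 1.81 ± 0.18 (SE, adjusted p = 8.06e-06, limma), so that reads of this stretch cannot be assigned between them. Whether the reads counted for Lars2 come from its message was not tested. Features annotated as microRNA loci, which in these libraries are reads over the locus and not mature microRNAs, included Mir6236 (1.53 ± 0.15, SE) and Mir5125 (0.98 ± 0.17, SE), both called higher.

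Combined, 11 such features took 0.689%, 0.621% and 0.603% of the normalized reads in heat-shocked and 0.171%, 0.136% and 0.127% in control KO libraries. They are Gm26917, Yam1, Lars2, Mir6236, Gm15564, Gm23935, Gm24187, n-R5-8s1 (a 5.8S ribosomal RNA), Rn7sk, Rmrp and Rpph1, and were put together after their values were seen. Over the same features the share was 0.503%, 0.497% and 0.622% in heat-shocked and 0.149%, 0.114% and 0.132% in control WT libraries. Their part in the other changes was not tested.

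Transcripts of the mitochondrial genome did not move together. The 2 ribosomal RNAs rose while mt-Nd5, a subunit of respiratory complex I, had 6116, 5255 and 5615 normalized reads in heat-shocked and 8085, 10599 and 13488 in control KO libraries and fell by 0.89 (SE 0.17, adjusted p = 0.00465, limma). The other 8 of 11 tested were not called, among them mt-Nd1 (-0.25 ± 0.16, SE) and mt-Nd2 (-0.24 ± 0.23, SE), whose groups overlapped. Over all tested genes 0.481% were called higher and 0.264% lower. Ribosomal RNAs made up 12.3%, 11.9% and 11.7% of the mitochondrial reads in heat-shocked and 2.94%, 2.93% and 2.71% in control KO libraries. An exact permutation test of this share gave p = 0.10 (two-sided), the smallest that 3 against 3 libraries allow. Mitochondrial reads as a whole took 0.732% to 0.935% of the heat-shocked and 0.674% to 1.13% of the control KO libraries, with overlap (exact permutation p = 0.80, two-sided).

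Several of the genes that fell carry microRNA hairpins. Of 26 called-lower genes that could be placed on GRCm38, other than microRNA and snoRNA features, 9 contained a hairpin of the RefSeq table, 34.6%, against 5 of 48 called-higher genes (10.4%) and 450 of 12657 tested genes (3.56%). The 450 genes had a median change of 0.03, and 42.4% of them lay below 0. Among the 9, Gm28119 and 2610203C20Rik overlap on chromosome 9 and contain the same Mir125b-1 hairpin, and both were looked up after their values were seen.

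Some of the mature microRNAs encoded in 5 of these transcripts are shown to identify the loci, from RefSeq (GRCm38.p6). They were not measured here, since the libraries were made from polyadenylated RNA. Capitals mark the seed, bases 2 to 8, which pairs with target messages.
miR-17-5p: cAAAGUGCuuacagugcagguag
miR-20a-5p: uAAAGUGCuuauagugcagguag
miR-16-5p: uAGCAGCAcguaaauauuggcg
miR-199a-5p: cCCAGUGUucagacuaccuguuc
miR-214-3p: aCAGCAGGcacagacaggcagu
miR-21a-5p: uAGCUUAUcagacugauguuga
miR-22-3p: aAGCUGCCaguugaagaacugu
miR-17-5p and miR-20a-5p, both from Mir17hg, share the seed AAAGUGC, and the other 5 shown differ in theirs. Mir17hg also contains Mir18, Mir19a, Mir19b-1 and Mir92-1, which are not shown. miR-16-5p lies in Dleu2, miR-199a-5p and miR-214-3p in Dnm3os, miR-21a-5p in Vmp1 and miR-22-3p in Mir22hg.

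Dnm3os, on chromosome 1 from 162217623 to 162225550 (GRCm38, GENCODE M21), runs antisense to Dnm3. It had 82.5, 80.9 and 92.1 normalized reads in heat-shocked KO libraries, against 265, 291 and 382 in control KO libraries. Every control was several times above every heat-shocked library, and Dnm3os fell by 1.85 (SE 0.14, adjusted p = 4.25e-07, limma). Mir17hg, the host of the miR-17-92 cluster on chromosome 14, had 21.5, 19.7 and 27.2 in heat-shocked and 73.2, 89.0 and 79.1 in control KO libraries and fell by 1.78 (SE 0.18, adjusted p = 8.28e-06, limma). Dleu2, also on chromosome 14, had 64.4, 62.2 and 44 in heat-shocked and 121, 107 and 166 in control KO libraries and fell by 1.19 (SE 0.18, adjusted p = 0.000887, limma). These 3 calls held in every alternative run. Mir22hg had 41.8, 59.1 and 51.3 in heat-shocked and 81.7, 99.9 and 84.8 in control KO libraries, a fall of 0.80 on the log2 scale (SE 0.15, adjusted p = 0.00431, limma).

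Of the protein-coding hosts, Vmp1 encodes a membrane protein of autophagy and contains the miR-21a hairpin on chromosome 11. Vmp1 had 2362, 2178 and 2231 normalized reads in heat-shocked and 3734, 3330 and 4101 in control KO libraries and fell by 0.72 (SE 0.07, adjusted p = 8.28e-06, limma). Dgcr8, the partner of Drosha that cuts microRNA hairpins from their transcripts, had 578, 482 and 564 in heat-shocked and 840, 890 and 851 in control KO libraries and contains the Mir1306 hairpin. It fell by 0.67 (SE 0.08, adjusted p = 3.96e-05, limma). Groups of both genes were far apart, and both calls held in every alternative run. Ccdc88c, chosen after its values were seen, contains Mir1190 and had 12.4, 12.4 and 13.6 in heat-shocked and 29.7, 32.5 and 24.9 in control KO libraries (-1.11 ± 0.19, SE, adjusted p = 0.00264, limma).

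Among other long noncoding RNAs that fell, Malat1, an abundant RNA of nuclear speckles, had 1464, 1433 and 1395 normalized reads in heat-shocked and 2521, 2055 and 2466 in control KO libraries and fell by 0.71 (SE 0.14, adjusted p = 0.00585, limma). Kcnq1ot1, an antisense RNA of an imprinted cluster, had 127, 96.5 and 105 in heat-shocked and 168, 169 and 211 in control KO libraries. Its fall of 0.74 (SE 0.19, adjusted p = 0.0390, limma) lost its call without control library 1, 2 or 3 or heat-shocked library 2 or 3, at -0.79 to -0.63, with no filter on low values (-0.74), and under a correction for GC content and length (-0.56). Neat1, the RNA of paraspeckles, was lower in every heat-shocked library (3973, 3829 and 3993) than in every control (4371, 4610 and 5703) but was not called (-0.31 ± 0.11, SE, adjusted p = 0.145, limma). Gas5, a host of snoRNAs, stayed at 0.04 ± 0.06 (SE). Of 26 long noncoding and small-RNA host genes tested, 1 was called higher and 5 lower, with a median of -0.07. Over all tested genes 0.481% were called higher and 0.264% lower, and 4.94% of the noncoding features other than pseudogenes were called.

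Further genes of the lower set do not carry hairpins. Zfp747, a zinc finger protein, fell by 0.74 (SE 0.16, adjusted p = 0.0125, limma), Zscan2, of the SCAN zinc finger family, fell by 0.68 (SE 0.14, adjusted p = 0.0116, limma) and Mars2, the mitochondrial methionyl-tRNA synthetase, fell by 0.63 (SE 0.09, adjusted p = 0.00075, limma). The snoRNA Snord104 had 101, 87.1 and 95.2 in heat-shocked and 172, 162 and 150 in control KO libraries and fell by 0.77 (SE 0.17, adjusted p = 0.0170, limma). The calls of Zfp747 and Snord104 ended without control library 1 or 2 or heat-shocked library 2, that of Zfp747 also without heat-shocked library 1 and that of Snord104 also without heat-shocked library 3. The call of Zscan2 ended without control library 2 or heat-shocked library 2, and that of Mars2 without control library 3 or heat-shocked library 3 and under a correction for GC content and length (-0.55). Where a snoRNA or antisense RNA overlaps another gene, reads of both cannot be told apart, because the strand setting of the counting was not stated.

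The called genes of the extracellular matrix, a main product of fibroblasts, were all higher, by less than 2-fold. Fn1, fibronectin, had 125548, 143118 and 130573 normalized reads in heat-shocked and 74431, 74775 and 80748 in control KO libraries. Col1a1, the first chain of type I collagen, had 21271, 24574 and 22019 in heat-shocked and 13254, 13185 and 11774 in control KO libraries, and Col1a2, its second chain, had 47726, 51731 and 50138 in heat-shocked and 33142, 32719 and 31992 in control KO libraries. Replicates were close and the groups far apart for all 3. The rises were 0.79 ± 0.08 for Fn1 (SE, adjusted p = 5.56e-06, limma), 0.83 ± 0.08 for Col1a1 (SE, adjusted p = 6.58e-06, limma) and 0.61 ± 0.06 for Col1a2 (SE, adjusted p = 1.51e-05, limma). Col1a2 missed the fold threshold without heat-shocked library 2 (0.58).

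Of 20 collagens 3 were called higher, the third being Col6a3 (0.64 ± 0.07, SE), and none lower, with a median of 0.45. For this and the next 3 lists, 0.481% of all tested genes were called higher, 0.264% were called lower and 51.3% lay above 0. Of the 20 collagens, 14 lay wholly above and 2 wholly below their controls, where 12.4% of all tested genes lay wholly above and 10.8% wholly below. Col11a2 was the lowest member (-0.43). Col3a1 (0.43 ± 0.06, SE, adjusted p = 0.000169, limma) and Col4a1 (0.47 ± 0.06, SE, adjusted p = 4.79e-05, limma) passed the p threshold and not that of the fold. Among 31 elastic fibre and matrix glycoproteins, 2 were called higher, Fn1 and Svep1, an adhesion protein (0.82 ± 0.10, SE), and 30 lay above 0. Of 10 laminins and basement membrane genes, 2 were called higher, Hspg2, perlecan (0.77 ± 0.07, SE), and Lama5, the laminin alpha 5 chain (0.68 ± 0.07, SE), and 9 lay wholly above their controls. Of 25 collagen modification and crosslinking genes, 2 were called higher, the prolyl hydroxylase subunit P4ha2 (0.68 ± 0.08, SE) and the lysyl oxidase Loxl2 (0.62 ± 0.07, SE). The medians of these lists were 0.29, 0.35 and 0.24 in that order. Loxl2 missed the fold threshold without control library 1 or 2 or heat-shocked library 2, at 0.57 to 0.58. Lrp1, an endocytic receptor that binds many matrix proteins, had 18538, 21238 and 20468 in heat-shocked and 12842, 12864 and 12904 in control KO libraries and rose by 0.64 ± 0.07 (SE, adjusted p = 4.07e-05, limma). Integrins, the receptors of the matrix, had 0 of 15 members called, with Itga1 at 0.77 ± 0.24 (SE, adjusted p = 0.101, limma) and Itga3 at 0.17 ± 0.08 (SE).

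Calls moved with the base composition of the transcripts. The tested genes were cut into 5 groups of equal size (quintiles). In the quintile with the highest GC content 1.22% were called higher and 0.243% lower, while in that with the lowest GC content 0.122% were called higher and 0.486% lower. By length, 0.932% of the shortest quintile and 0.608% of the longest were called higher, against 0.122% to 0.324% of the others. The median change went from -0.03 in the lowest to 0.05 in the highest GC quintile in KO, and from -0.21 to 0.21 in WT. From the shortest to the longest quintile it went from 0.05 to -0.03 in KO and from 0.17 to -0.17 in WT. The part of composition in the calls was not tested beyond the correction given next. The median GC content was 56.4% for the 36 protein-coding genes called higher, against 49.9% for all 10967 tested, and 14 of the 36 (38.9%) had a transcript over 5000 bases, against 23.4% of all. After removal of the trend with GC content and length, the collagen list had a median of 0.42, the elastic fibre list 0.28 and the laminin list 0.35. The correction also took called genes under the fold threshold, among those named here Col1a2 (0.57), Notch3 (0.54), Cd68 (0.56), Mars2 (-0.55) and Kcnq1ot1 (-0.56).

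**Figure D3:**
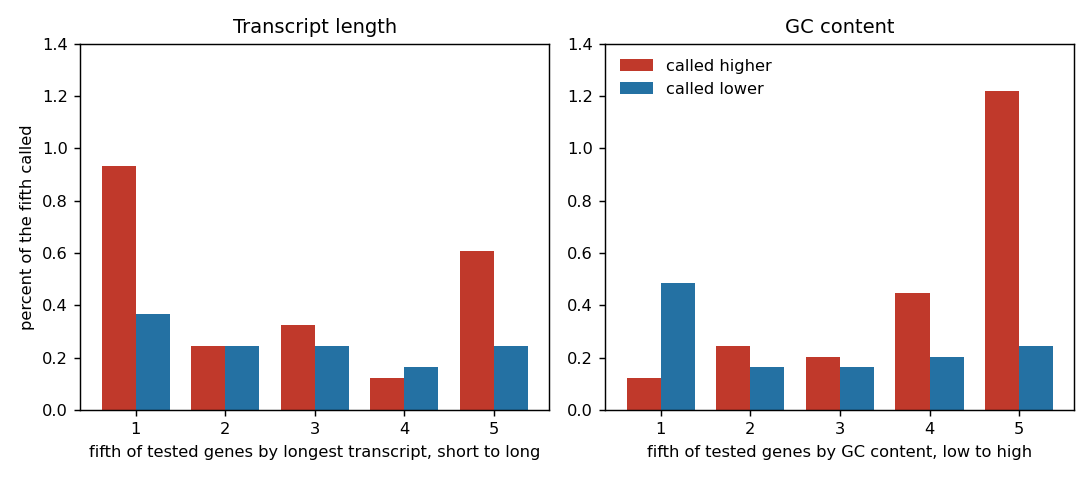
Percent of genes called higher (red) and lower (blue) in heat-shocked against control KO MEFs, by quintiles of the tested genes ordered by the length of the longest transcript (left) and by its GC content (right). The quintile with the highest GC content has the highest share called higher, 1.22%.

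No hypoxia or glycolysis gene was called, yet most of the list lay above 0. Of 35 tested, 32 had a change above 0 (51.3% of all tested genes), 24 lay wholly above their controls (12.4% of all tested genes), and the median was 0.34. Ldha, lactate dehydrogenase A, had 50462, 56280 and 56754 normalized reads in heat-shocked and 45597, 40799 and 42461 in control KO libraries, with no overlap (0.34 ± 0.07, SE, adjusted p = 0.00877, limma). Vegfa, an angiogenic factor induced by hypoxia, had overlapping groups (0.00 ± 0.07, SE). Hk1, hexokinase 1, and Pgk1, phosphoglycerate kinase, were looked up after the values were seen and had changes of 0.58 ± 0.07 (SE, adjusted p = 7.06e-05, limma) and 0.39 ± 0.06 (SE, adjusted p = 0.000919, limma), both under the fold threshold.

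For cytosolic ribosomal proteins, none of 80 genes was called and 79 had a change above 0, against 51.3% of all tested genes. Of the 80, 30 lay wholly above their controls, against 12.4% of all tested genes. The median was 0.15, with Rplp0 at 0.15 ± 0.07 and Rplp1 at 0.11 ± 0.07 (SE). Ribosomal protein genes took 8.30% to 8.83% of the normalized reads in heat-shocked and 7.85% to 8.35% in control KO libraries. Nuclear genes of oxidative phosphorylation had 0 of 76 called and a median of 0.07, with Ndufa1 at 0.19 ± 0.08 and Ndufa2 at 0.04 ± 0.08 (SE). Of the 76, 69 lay above 0 and 11 lay wholly above their controls, against 51.3% and 12.4% of all tested genes. Over all tested genes 0.481% were called higher and 0.264% lower.

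Further lists had medians between -0.11 and 0.12. No member was called among 37 proteasome subunits (median 0.02; Psma1 0.07, Psma2 -0.01), 43 SR and hnRNP splicing regulators (median 0.00; Srsf1 0.00, Srsf2 -0.14) or 38 cell cycle genes (median -0.01; Ccna2 -0.04, Ccnb1 -0.01). The same held for 16 p53 targets (median -0.01, with Cdkn1a at 0.24 and Mdm2 at -0.09), 29 sterol and fatty acid synthesis genes (median 0.06, with Hmgcs1 at -0.03) and 7 histones (median -0.11, with Hist1h1c at -0.14 and Hist1h2ae at -0.71). These 7 were the only ones of 65 listed histones that passed the filter, and 9 had no read in the 6 KO libraries. Cytokine and interferon genes had 0 of 25 called (median -0.07, Il6 -0.46, Cxcl1 -0.04), and redox genes 0 of 23 (median 0.04, Hmox1 0.13, Nqo1 -0.03). Of the TGF-beta and BMP list 0 of 27 were called (median 0.00, Tgfb1 -0.08, Tgfb2 0.14). The actin and contractile list had a median of 0.12, with 25 of 35 members above 0, 15 wholly above and 2 wholly below their controls. Over all tested genes 51.3% were above 0, 12.4% wholly above and 10.8% wholly below their controls, and 0.481% were called higher. In the actin list 1 gene was called higher, Acta1, the skeletal muscle actin, with 28.3, 42.5 and 33.5 normalized reads in heat-shocked and 19.1, 10.8 and 10.2 in control KO libraries (1.35 ± 0.30, SE, adjusted p = 0.0188, limma). That call ended without control library 2 or 3 or heat-shocked library 2 or 3, at 1.20 to 1.37, whereas Acta2 (0.25 ± 0.07, SE) and Actb (-0.05 ± 0.08, SE) were not called.

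In the Wnt pathway, which the study looked at closely, no tested gene of 2 lists was called. Over all tested genes 0.481% were called higher and 0.264% lower, so 0 calls in lists this short lie near the share of all genes. Of 29 listed Wnt ligands and receptors 12 were tested and 0 were called, with a median of 0.05. Another 8, Wnt5a among them, had no read in the 6 KO libraries. Wnt10b had 23.7, 12.4 and 16.7 normalized reads in heat-shocked and 8.48, 15.8 and 5.65 in control KO libraries, with overlap (0.83 ± 0.26, SE, adjusted p = 0.0996, limma), and the receptor Fzd1 was at -0.01 ± 0.07 (SE). Of 37 listed genes of the beta-catenin complex and Wnt targets 25 were tested and 0 were called, with a median of 0.01. Another 7 had no read in the 6 KO libraries. Ctnnb1, beta-catenin, had 7424, 7892 and 7693 in heat-shocked and 7960, 8101 and 7366 in control KO libraries (-0.03 ± 0.06, SE, adjusted p = 0.879, limma). Lef1, its partner on DNA, had 10.2, 17.6 and 15.7 in heat-shocked and 32.9, 21.6 and 20.4 in control KO libraries, without overlap and just outside the threshold (-0.75 ± 0.20, SE, adjusted p = 0.0506, limma). In the Notch list 1 of 16 was called higher, against 0.481% of all tested genes. It was the receptor Notch3 (0.59 ± 0.08, SE, adjusted p = 0.000372, limma), which missed the fold threshold without control library 2 or 3 or heat-shocked library 2 or 3, at 0.51 to 0.57. Notch1 (0.22 ± 0.10, SE) and Notch2 (0.16 ± 0.06, SE) were not called. Of the markers of other cells, Cd68, a lysosomal protein of macrophages, was called higher with 120, 134 and 134 in heat-shocked and 93.3, 74.9 and 85.9 in control KO libraries (0.61 ± 0.14, SE, adjusted p = 0.0257, limma), a call that ended without control library 2 or 3 or heat-shocked library 2 or 3 (0.52 to 0.62), and with a pseudocount of 5 (0.58). Csf1r (0.54 ± 0.36, SE) and Cd14 (-0.11 ± 0.10, SE) were not called.

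**Figure D4:**
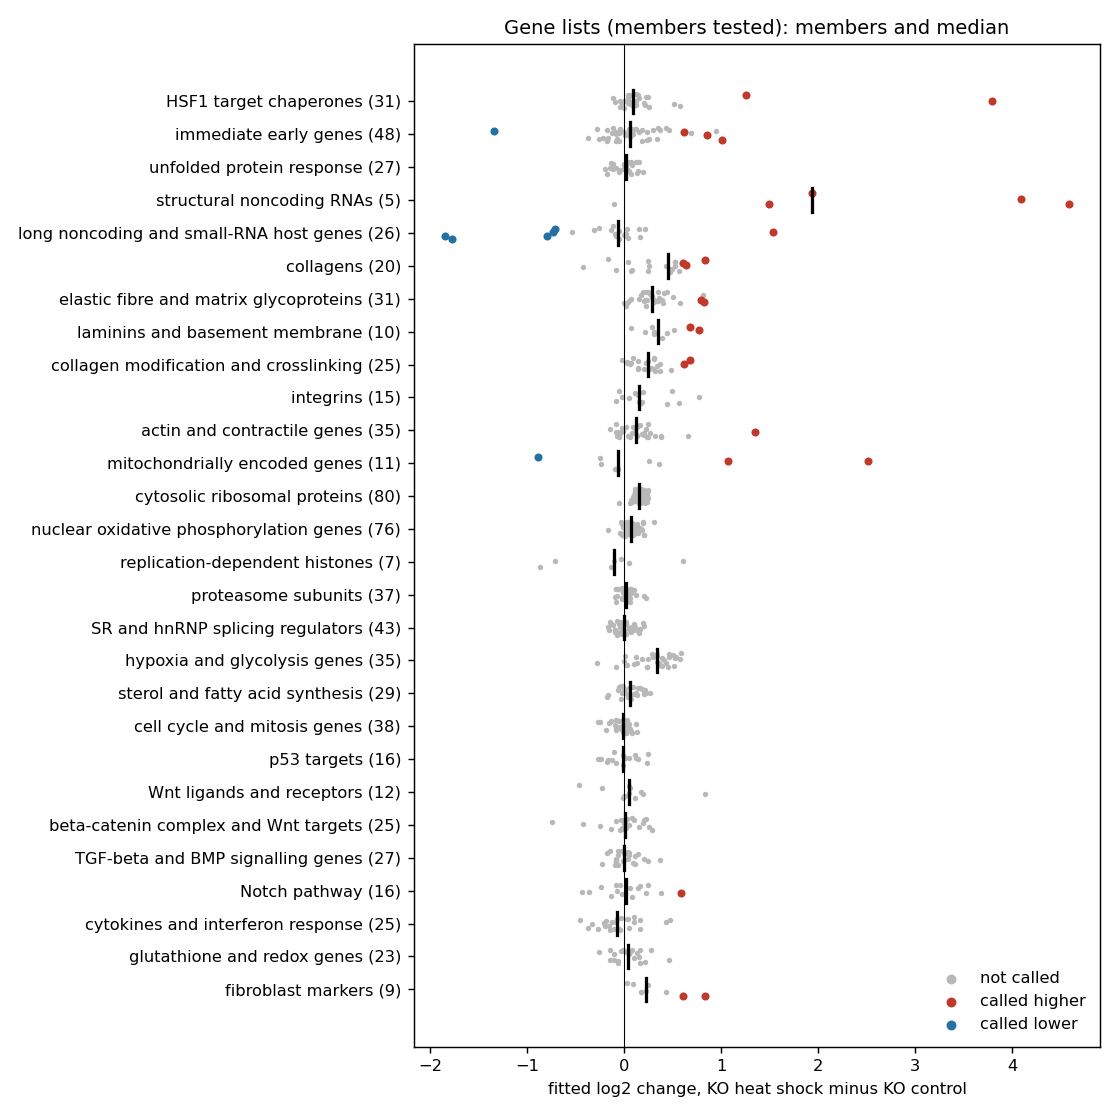
Fitted log2 change in KO MEFs (heat shock minus control) of each tested member of the gene lists with at least 5 such members. Points are genes, coloured where called, and black bars are medians. They range from -0.11 for the 7 tested of 65 listed histones to 1.94 for structural noncoding RNAs, a list that also holds the protein-coding gene Lars2 (1.49).

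Most genes called in KO MEFs had a change of the same sign in WT MEFs of the same treatment. Of the 62 called higher in KO, 60 had a change above 0 in WT and 43 were called higher there, 69.4% of the KO list and 20.8% of the 207 called higher in WT among these genes (1.61%). Of the 34 called lower in KO, 33 had a change below 0 in WT and 17 were called lower there, 50% of the KO list and 5.9% of the 288 called lower in WT (2.24%). Exactly 1 gene, C730034F03Rik, was called lower in KO (-1.48) and higher in WT (1.22), and its difference did not pass (-2.70, adjusted p = 0.0624, limma). Its counts were low, 3.39, 4.15 and 4.19 in heat-shocked and 11.7, 10.8 and 15.8 in control KO libraries. The KO call held in 7 of 16 alternatives. It ended with the KO libraries alone, with no filter, in DESeq2 and without any 1 KO library. The genes called higher in WT had a median change of 0.39 in KO and 1.05 in WT, a contrast in which the WT values chose the genes.

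The test of the difference itself, the response in KO minus that in WT in the same fit, called 8 genes with a larger (more positive) response in KO, 0.0621% of those tested, and 2 with a smaller one, 0.0155%. These calls rest on few libraries: leaving out control KO library 2 or any 1 heat-shocked KO library left 0 in both directions, leaving out control KO library 1 left 1 larger and 2 smaller, and leaving out control KO library 3 gave 18 and 10. In the fit of all libraries 2475 genes had an unadjusted p of at most 0.05 for the difference, and edgeR called 9 larger and 4 smaller, DESeq2 27 and 8. The KO and WT values are also those of separately immortalized cells, which cannot be told apart from the genotype. From the lowest to the highest GC quintile, the median change went from -0.03 to 0.05 in KO and from -0.21 to 0.21 in WT. The part of this trend in the differences was not tested beyond the correction for GC content and length.

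Jun had a response of 0.05 in KO and 1.18 in WT, a difference of -1.13 ± 0.20 (SE, adjusted p = 0.0397, limma). It averaged 2922 ± 129 in heat-shocked and 2844 ± 386 in control KO MEFs (SD, n = 3 each), against 2029 ± 568 in heat-shocked and 872 ± 35.7 in control WT MEFs (SD, n = 3 each), so that the mean of the KO controls already lay above every WT library. Rpph1 rose less in KO (1.94) than in WT (4.0), a difference of -2.06 ± 0.32 (SE, adjusted p = 0.0397, limma). It averaged 156 ± 11.2 in heat-shocked and 40.5 ± 8.52 in control KO MEFs (SD, n = 3 each). In WT MEFs it averaged 189 ± 38.5 after heat shock and 11.1 ± 3.38 in controls (SD, n = 3 each). Every KO control thus lay above every WT control, while the heat-shocked KO and WT libraries overlapped. mt-Rnr2 rose more in KO (2.51) than in WT (1.14), a difference of 1.37 ± 0.23 (SE, adjusted p = 0.0397, limma). Dnm3os fell in both, by 1.85 in KO and by 3.0 in WT, a difference of 1.15 ± 0.20 (SE, adjusted p = 0.0397, limma). Smaller differences with the same adjusted p were those of Prune2 (0.83 ± 0.15, SE), the aminopeptidase gene Npepps (0.60 ± 0.10, SE) and Fam117b (0.60 ± 0.11, SE), each with a change above 0 in KO and below 0 in WT. The remaining called differences were those of Rhoq (0.59), Bnip3 (0.59) and 2610203C20Rik (0.79), all named after their values were seen.

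No chaperone gene passed this test in limma, while DESeq2 passed Hspa1b and Dnajb1 among those named here. Hspa1b averaged 79.7 ± 19.9 in heat-shocked and 5.54 ± 4.03 in control KO MEFs (SD, n = 3 each), against 4038 ± 1831 in heat-shocked and 49.3 ± 13.3 in control WT MEFs (SD, n = 3 each). All 3 heat-shocked KO libraries lay far below every heat-shocked WT library. The difference of the responses of Hspa1b was -2.46 ± 0.53 (SE), with an adjusted p of 0.0742 in limma, 0.262 in edgeR and 0.0201 in DESeq2. Hspb1 averaged 1264 ± 230 in heat-shocked and 521 ± 15.9 in control KO MEFs (SD, n = 3 each), against 5331 ± 1353 in heat-shocked and 1701 ± 185 in control WT MEFs (SD, n = 3 each). The responses of 1.26 in KO and 1.62 in WT differed by -0.36 ± 0.21 (SE, adjusted p = 0.347, limma). For Dnajb1, at 0.26 in KO and 0.82 in WT, where it was called, the difference was -0.57 ± 0.15 (SE), with an adjusted p of 0.0922 in limma, 0.068 in edgeR and 0.00827 in DESeq2. For Fos it was -1.09 ± 0.34 (SE, adjusted p = 0.127, limma). Fos averaged 279 ± 50.5 in heat-shocked and 140 ± 35.4 in control KO MEFs (SD, n = 3 each). Its WT means were lower, 133 ± 33.3 after heat shock and 30.6 ± 9.51 in controls (SD, n = 3 each). Other stress genes looked up after their values were seen had responses of 0.04 in KO and 1.34 in WT for the phosphatase Dusp1 (adjusted p = 0.0742, limma) and of 0.69 in KO and 2.54 in WT for the transcription factor Atf3 (adjusted p = 0.0745, limma). In edgeR the difference passed for Dusp1 (adjusted p = 0.0253) and not for Atf3 (adjusted p = 0.0888).

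**Figure D5:**
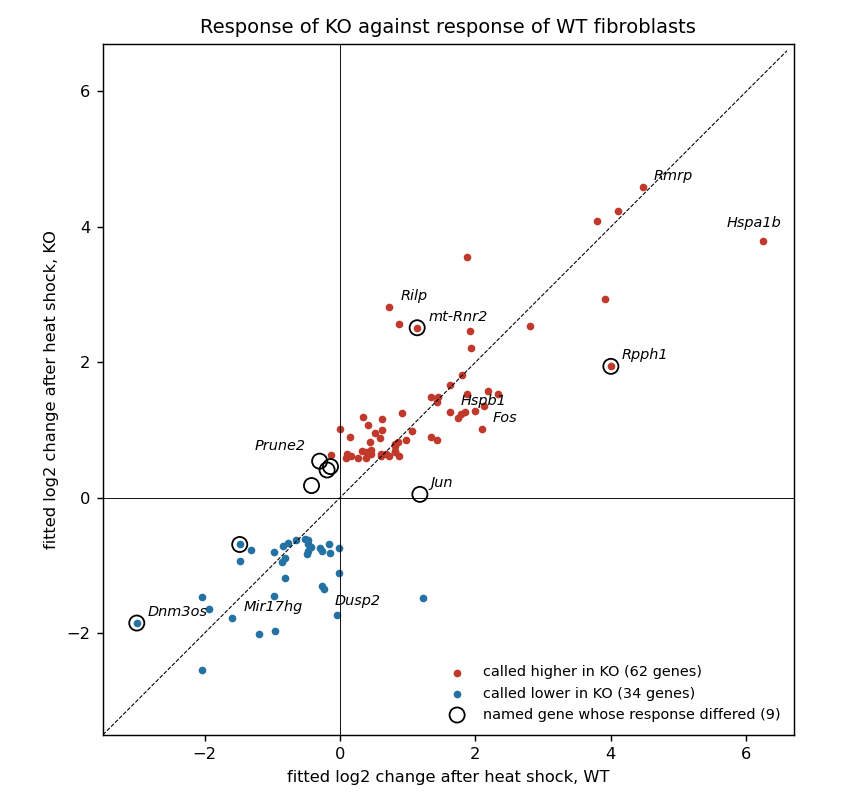
Fitted log2 change after heat shock in KO (vertical axis) against that in WT MEFs (horizontal axis) for the 62 genes called higher and the 34 called lower in KO; the dashed line marks equal responses. Open circles mark 9 named genes whose responses differed in the fit, among them Jun, at 0.05 in KO and 1.18 in WT.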

How the data were processed

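Messenger RNA of 12 MEF libraries had been prepared with a stranded poly(A) kit and read as paired ends. The submitters' processing notes name FastQC, cutadapt 1.10, STAR 2.5.2 and the mm9 build, the study's methods GRCm38. The deposited signal is a gene count from HTSeq-count, scaled by the authors with the size factor DESeq2 gave each library. Here 100% of the values above 0 were whole reads within 0.01 read. Whether reads were counted by strand is not given in the sources used here.

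The log2 of value plus 1 (the pseudocount) was fitted with limma 3.58.1 (trend, R 4.3.3) in 1 fit of 12 libraries with 4 group means and no block. Genes with a value of at least 10 in at least 3 KO libraries were tested, and p-values were adjusted over all 12885 (Benjamini-Hochberg). The difference of the responses is the interaction of that fit. Library shares were compared with exact permutation tests. Alternatives were a fit of the KO libraries alone, pseudocounts of 0.5 and 5, no filter, a filter of 50, quantile and TMM normalization, edgeR 4.0.16 and DESeq2 1.42.0 on the recovered reads, a replicate block, each KO library left out and, added after the data were seen, a correction for transcript length and GC content. The scripts were tested on simulated data.

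Named genes were Tgm2, Hsf1 and Ctnnb1; the 12 largest calls in each direction whose higher group averaged 100 or more, with no overlap and the same call in every setting other than edgeR, DESeq2 and the left-out libraries (filled, where fewer passed, with genes that met all but the last condition); the 5 most abundant called genes in each direction; up to 4 called and the first 2 uncalled members of each list; and the 5 largest called differences from WT in each direction with a mean of at least 100 in 1 of the 4 groups. Predicted genes were named only where stated, and a few genes chosen this way are left out of the text. The members, lists and rules were chosen with earlier results of these data known. Coordinates are from GENCODE M21 and sequences from RefSeq, both on GRCm38, of which 12331 tested genes matched by symbol.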

Additional observations from a re-analysis of the deposited data

Results flagged for a closer look

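Each of the following genes was called for a difference between KO and WT MEFs in its response to heat shock, by the interaction test in limma with all 12 libraries. Values are the log2 response in KO minus that in WT. The differences were 1.37 for mt-Rnr2, -2.06 for Rpph1, 1.15 for Dnm3os, -1.13 for Jun, 0.83 for Prune2, 0.60 for Npepps and 0.60 for Fam117b. The others were looked up after their values were seen: 2610203C20Rik, which overlaps the Mir100, Mirlet7a-2 and Mir125b-1 hairpins (placed through a RefSeq synonym), at 0.79 (adjusted p = 0.0397, limma), and Bnip3, a mitophagy receptor induced by hypoxia, at 0.59 (adjusted p = 0.0437, limma). 2610203C20Rik had 679, 691 and 611 normalized reads in heat-shocked and 931, 1065 and 1223 in control KO libraries, against 317, 272 and 289 in heat-shocked and 734, 861 and 868 in control WT libraries. Bnip3 had 4070, 4226 and 4226 in heat-shocked and 3103, 2683 and 3387 in control KO libraries, against 403, 383 and 431 in heat-shocked and 434, 432 and 472 in control WT libraries. In edgeR all but Prune2 (adjusted p = 0.0517) kept an adjusted p of at most 0.05 for the difference. In limma none of these calls held without control KO library 2, without any 1 heat-shocked KO library, or under quantile normalization.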

How the results depend on the processing

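Of the 57 named genes called in KO MEFs, 37 kept their call and direction in every alternative that tested them, and no called gene changed direction. Part of these genes had been named because their call held in most of the alternatives, which raises this share. Over all called genes, 36 of the 62 higher and 15 of the 34 lower ones kept their call in every alternative that tested them. A gene that DESeq2 left without an adjusted p was counted as not called there. For the features annotated as Mir186 and Snora73a, both called lower, this was the only call lost. The 62 higher and 34 lower calls became 40 to 69 and 24 to 39 when 1 KO library was left out. A filter of 50, which tests fewer genes, gave 41 higher calls. Quantile normalization gave 73 lower calls and, for the difference from WT, 0 larger and 0 smaller responses; the GC and length correction, chosen after seeing the data, gave 58 lower calls, 14 larger and 13 smaller responses. The cause was not tested. For the 8 larger and 2 smaller responses, DESeq2 gave 27 and 8, edgeR 4 smaller, TMM 1 smaller, a pseudocount of 0.5 gave 1 and of 5 gave 5 smaller, and leaving out 1 KO library gave 0 to 18 larger and 0 to 10 smaller. The fit with a replicate block gave 59 higher and 33 lower calls, and 3 larger and 2 smaller responses. The replicate numbers were not taken as pairs, since the deviations of same-numbered KO libraries correlated at -0.0852, 0.0125 and -0.0417, and not every library matched its own number best. Quantile normalization also took Col1a2 (0.35), Lrp1 (0.50) and Lama5 (0.54) under the fold threshold. Genes with mean counts under 100 gave 30 of the higher and 23 of the lower calls.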

Other observations

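Some protein-coding genes, looked up after their values were seen, rose in KO MEFs and belong to none of the lists. Rilp, an effector of the GTPase Rab7 on lysosomes, had 22.6, 16.6 and 25.1 normalized reads in heat-shocked and 3.18, 2.5 and 1.13 in control KO libraries (2.81 ± 0.29 on the log2 scale, SE, adjusted p = 1.31e-05, limma). Slc4a11, a membrane transporter, had 57.6, 49.8 and 46 in heat-shocked and 24.4, 20.8 and 20.4 in control KO libraries (1.19 ± 0.16, SE, adjusted p = 0.000232, limma). Neither overlapped its controls. Their WT responses were 0.73 and 0.34, and the difference of 2.08 for Rilp did not pass the test (adjusted p = 0.0705, limma). C3, the central complement component, had 2991, 3237 and 3260 in heat-shocked and 2035, 2041 and 2025 in control KO libraries and rose by 0.64 ± 0.07 (SE, adjusted p = 4.07e-05, limma), and Cspg4, the NG2 proteoglycan, had 315, 294 and 297 in heat-shocked and 180, 211 and 173 in control KO libraries and rose by 0.69 ± 0.11 (SE, adjusted p = 0.00129, limma).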
